A study of Bos grunniens with 18 samples.

Results

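Circular RNAs (circRNAs) that span exon and intron were described in yak testis at 3 ages. They are the circRNAs whose deposited annotation class is exon_intron, which the deposited table sets apart from circRNAs made of annotated exons (annot_exons or one_exon), intronic, intergenic and antisense circRNAs. By that rule 13777 of 73679 circRNAs were members, 18.7% of the table, and no measured value entered the rule. They came from 5256 host genes.

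Testis tissue was taken at castration from 9 healthy male yaks (Bos grunniens) of a single cooperative, 3 animals each at 6 months (Y6M), 18 months (Y18M) and 4 years (Y4Y). Each animal gave 1 library depleted of ribosomal RNA, which supplied both the circRNA and the gene counts, and the animals carried no transgene, knockout or drug treatment that the labels name. Libraries were grouped by the age in their titles, which the protocol text shares, because a stage label runs against it by giving infancy for Y4Y, adolescence for Y6M and adulthood for Y18M. A replicate number does not link animals across ages.

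CircRNAs form when the end of a downstream stretch of a transcript is joined backwards to the start of an upstream stretch, and they are counted by reads that cross this back-splice junction. Most circRNAs of animal cells hold whole exons and lie in the cytoplasm, where they outlast linear RNA because they have no free ends. Those that keep intron sequence, called exon-intron circRNAs or EIciRNAs, have been found in the nucleus of human cells, where some associate with the U1 snRNP and RNA polymerase II at the promoter of their host gene. The testis is known for a rich and changing set of circRNAs, which in mice builds up as germ cells pass through meiosis and into spermatids.

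The libraries held 119.8 to 227.2 k back-splice reads and 22.95 to 33.12 M gene counts. Summed levels of 7 germ cell markers (DDX4, DAZL, SYCP3, PIWIL1, ACRV1, PRM1 and TNP1), in gene counts per 1 M counts (CPM), were 11.4 to 25.8 in Y6M, 331 to 1832 in Y18M and 1886 to 2377 in Y4Y. The 5 Sertoli cell markers summed to 4811 to 5451, 379 to 1198 and 315 to 368 CPM at the same ages, and the Leydig cell markers to 14783 to 21410, 2523 to 5787 and 2396 to 4302 CPM. INHA carried most of the Sertoli sum, at means of 4099, 367 and 108 CPM, whereas CLDN11 of the same list ran the other way, at 8.56, 289 and 202 CPM. Peritubular and interstitial markers summed to 1025 to 1410, 170.0 to 687 and 172 to 187 CPM. There DCN averaged 1038, 64.4 and 44.3 CPM, while the smooth muscle genes ACTA2 (50.5, 220.4 and 76.1 CPM) and MYH11 (21.4, 112 and 55.8 CPM) were highest at 18 months. Markers of epididymis and efferent duct summed to at most 49.4, 99.1 and 123 CPM. EPCAM carried most of the later sums, at means of 2.83, 60.9 and 91.9 CPM. ESR1 of the same list ran the other way, at 19.2 and 3.37 CPM at 6 and 18 months and lower still at 4 years. The tested DEFB1 entries were also lower at both later ages, and AQP1 averaged 18.6, 14.1 and 21.2 CPM. The leukocyte markers PTPRC and CD3E summed to 27.6 to 95.2, 12.8 to 63.0 and 9.06 to 9.91 CPM. Among blood markers, HEMGN had at most 0.137 CPM in Y6M, 3.87 to 79.3 in Y18M and 73.1 to 131 in Y4Y, while the beta-globin gene HBB had at most 6 counts in any library. ACRV1 was at 0 in Y6M replicate 1, and no other germ cell, Sertoli or Leydig marker was at 0 in any library. Among the 18-month libraries, replicate 2 had the lowest germ cell sum, 331 CPM, against 1832 in replicate 1 and 870 in replicate 3. The sums of these lists did not overlap between 4 years and 6 months. Between 18 months and 6 months the epididymis and leukocyte sums overlapped, and between 4 years and 18 months the Leydig, peritubular and blood sums did. Their part in the results was not tested. In bulk tissue, fewer cells of a type and less RNA per cell cannot be told apart. CPM are also relative to all gene counts of a library, so a lower sum need not be an absolute loss.

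CircRNAs spanning exon and intron were long. Their median spliced length in the authors' table, whose derivation is not given in the sources used here, was 4868 bases, with a middle range of 1650 to 14320 bases and extremes of 141 and 99951 bases. Circles of the annot_exons class had a median of 654 bases, whereas intergenic circRNAs had one of 10071 bases. The genomic span from junction to junction differed less, at a median of 18242 bases for exon_intron against 12441 bases for annot_exons. Within each library the median length of the detected exon_intron circRNAs exceeded that of detected annot_exons circRNAs by 3957 ± 176 bases (SD, n = 9 libraries). The difference lay between 3644 and 4175 bases over the libraries. It is a description with no test, since how the class and the length were assigned is not given.

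**Figure D1:**
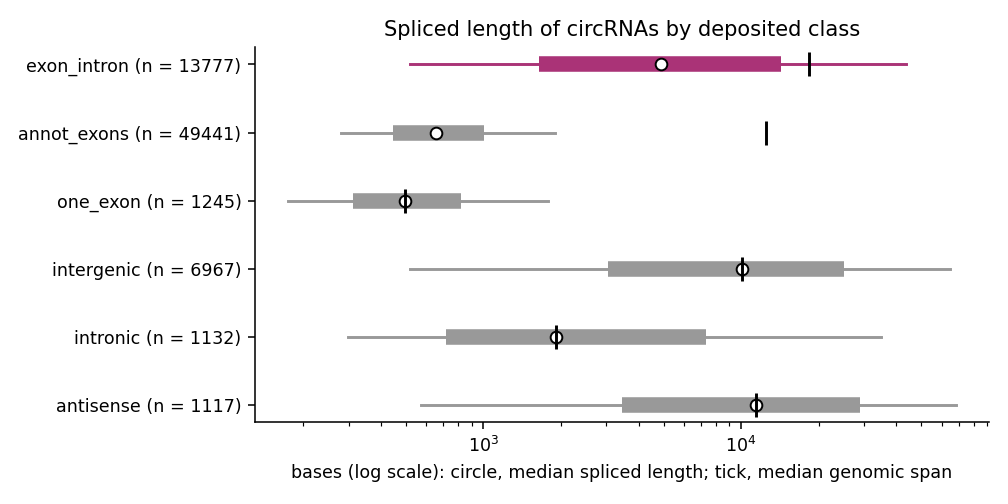
Spliced length of circRNAs in each deposited class, on a log axis in bases; thick bars run from the 25th to the 75th percentile, thin lines from the 5th to the 95th, circles mark median spliced length and black ticks median genomic span. The exon_intron class has a median of 4868 bases and the annot_exons class one of 654 bases.

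The spliced length equalled the whole genomic span in 2849 members (20.7%), which the table thus lists as single blocks with nothing spliced out, and these held 24.9% of member reads. Short members carried more than their share of reads: the 2070 members of up to 1000 bases held 24.3% of member reads. The 4597 members over 10000 bases, 33.4% of members, held 24.8%. Reads in member shares are summed over the 9 libraries.

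A back-splice junction has a 5′ end, where a splice acceptor lies in an exonic circle, and a 3′ end, where a splice donor lies. Of the 13777 members, 4146 (30.1%) had exactly the same 3′ end as a circRNA of annotated exons but not its 5′ end, and 2744 (19.9%) had the same 5′ end but not its 3′ end. Only 35 matched such circles at both ends, and 6852 (49.7%) at neither. Many members were variants of each other. A back-splice end was shared with another member by 7979 members (57.9%), and the most members found on a single end were 13.

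Most members were rare. Reads were found in only 1 library for 9155 members (66.5%), which together held 15.6% of member reads, and 5087 members had at most 2 reads in all. By contrast 170 members had reads in all 9 libraries and held 34.2% of member reads. The 15 members with the most reads held 17.3%. A count of 0 in a library allows up to 3 reads there, which covers counting error only, since the reads carry no molecular identifiers. At this depth, absence of a rare member from a library is not a difference between animals.

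Host genes differed in how many members they gave. Of 5256 hosts, 2459 gave 1 member, 163 gave at least 10, and the most was 23. In 1279 hosts (24.3%) no circle of annotated exons was listed. Members held more reads than the circles of annotated exons in 1853 hosts (35.3%), which include these 1279 by definition. ADAMTSL3, which encodes an extracellular matrix protein, had the most members, 23, with 428 reads, beside 42 circles of annotated exons with 1658 reads. SLC26A7, an anion transporter, followed with 22 members and TTLL5, a tubulin glutamylase, with 21. TRIP12, a ubiquitin ligase, the spermatogenesis-associated gene SPATA1, the autophagy kinase ULK2, the ciliogenesis kinase TTBK2 and CCDC7 had 20 each. The 20 members from TRIP12 held 5321 reads, against 418 on its circles of annotated exons, whereas those from CCDC7 (ENSBTAG00000002675, a symbol that also stands on another identifier) held 60 reads against 441.

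The share of back-splice reads that fell on exon_intron circRNAs was larger at each later age. It was 8.25%, 8.92% and 8.47% in Y6M replicates 1 to 3, 12.5%, 9.25% and 10.7% in Y18M, and 13.2%, 13.3% and 12.7% in Y4Y. No age overlapped another, and Y18M replicate 2 lay closest to the 6-month animals, as its germ cell sum did. Y18M replicate 2 also had the most back-splice reads per 1 M gene counts, 9265 against 5123 to 7208 in the others. The part of either in the share was not tested. Means were 8.55% ± 0.345, 10.8% ± 1.63 and 13.1% ± 0.351 (SD, n = 3 per age). Across the 280 ways of grouping 9 libraries into 3 ages, the two-sided exact permutation p was 0.00357, the smallest the design can give, and 0.0143 after Benjamini-Hochberg adjustment over the 4 main measures. Between 2 ages, 3 animals against 3 cannot give an exact p below 0.1.

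Other classes moved too. The annot_exons class held 82.8% ± 0.436, 78.1% ± 3.29 and 74.8% ± 0.360 of back-splice reads at 6 months, 18 months and 4 years. The one_exon class held 4.53% ± 0.188, 4.18% ± 0.399 and 3.26% ± 0.156, and intergenic circRNAs held 3.44% ± 0.201, 5.55% ± 1.70 and 7.18% ± 0.159. The log2 ratio of exon_intron to annot_exons reads was −3.28 ± 0.07, −2.86 ± 0.28 and −2.52 ± 0.05 (exact permutation p = 0.00357, adjusted 0.00893 over 5 ratios). Against intergenic circRNAs the log2 ratio ran the other way, at 1.31 ± 0.04, 1.00 ± 0.22 and 0.86 ± 0.04 (exact permutation p = 0.0214, adjusted 0.0214). The ratio to antisense circRNAs was 4.43 ± 0.18, 3.54 ± 0.34 and 3.33 ± 0.04 (exact permutation p = 0.0143, adjusted 0.0214). Exon_intron circRNAs therefore gained on annot_exons circles, while intergenic and antisense circRNAs gained on exon_intron circRNAs. A larger share is not particular to this class.

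Summed over their host genes, members also held a larger share at later ages. Of all back-splice reads on genes that host a member, members held 11.3% ± 0.476 at 6 months, 14.2% ± 2.20 at 18 months and 17.0% ± 0.504 at 4 years (exact permutation p = 0.00714, adjusted 0.0143). The 18-month and 4-year animals overlapped in this measure. Without the member with the most reads, the 4-year minus 6-month difference was 5.17 percentage points, against 5.76 with it, and without the 15 with the most reads it was 4.13. This ratio of sums also moves when hosts rich in member reads take more of the reads. With every host given the same weight in all libraries, over the 2037 hosts with back-splice reads in each library, the share was 10.98% ± 0.0936 at 6 months, 12.3% ± 0.877 at 18 months and 13.1% ± 0.157 at 4 years. The 4-year minus 6-month difference was then 2.09 percentage points (exact permutation p = 0.0107 over the 3 ages), against 5.24 for the ratio of sums over the same hosts. No 6-month library overlapped a later one in the weighted share, and the 18-month and 4-year libraries overlapped.

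More distinct members were found after 6 months. Thinned to the depth of the shallowest library, the expected number was 2003 ± 182 in Y6M, 3028 ± 207 in Y18M and 3078 ± 300 in Y4Y (exact permutation p = 0.0321, adjusted 0.0429). Every 6-month library lay below every later one, whereas the 18-month and 4-year libraries overlapped. Circles of the annot_exons class numbered 12524 ± 643, 15084 ± 392 and 13893 ± 1307 at equal depth. Intergenic circRNAs numbered 802 ± 144, 1596 ± 239 and 1693 ± 158, and antisense circRNAs 104 ± 13.1, 224 ± 58.5 and 275 ± 36.6. The one_exon and intronic classes had their highest means at 18 months. A larger number after 6 months is thus not particular to exon_intron circRNAs. Before thinning, 1864 to 2305 members were detected in Y6M libraries, 3278 to 3518 in Y18M and 2739 to 3648 in Y4Y.

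**Figure D2:**
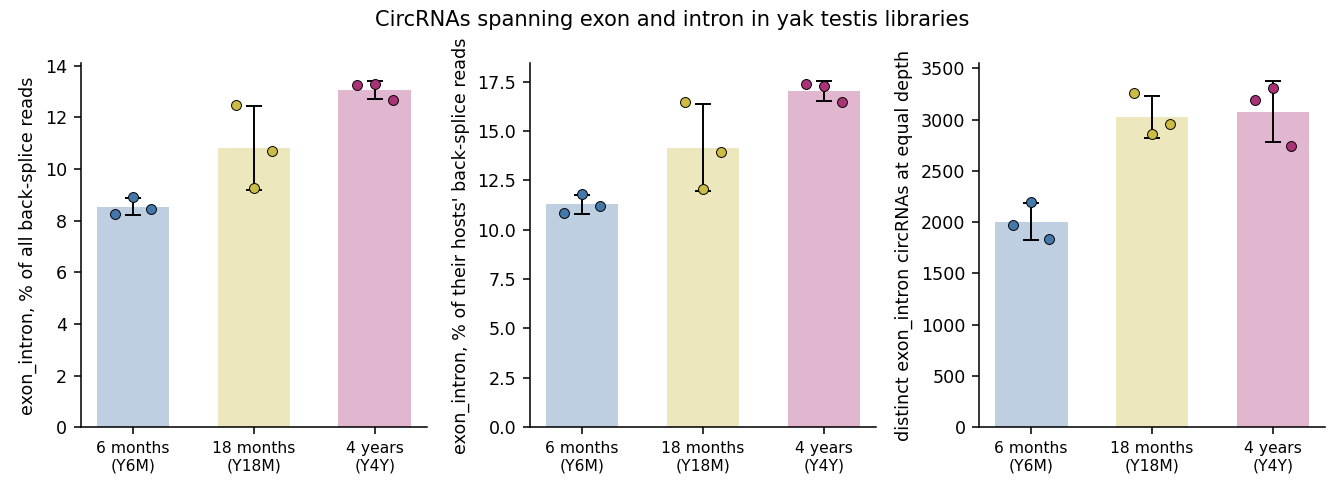
Exon_intron circRNAs in the 9 libraries, as a percentage of all back-splice reads (left), as a percentage of the back-splice reads of their own host genes (middle) and as the expected number of distinct circRNAs at the depth of the shallowest library (right); points are animals, bars are means and error bars SD (n = 3 per age). All 3 measures are lowest at 6 months, and Y18M replicate 2 is the lowest 18-month library in each.

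The ages overlapped in length. The median spliced length of detected members was 4454 ± 285 bases in Y6M, 4625 ± 96.7 in Y18M and 4646 ± 103 in Y4Y (exact permutation p = 0.461). Members up to 1000 bases held 25.1% ± 1.14, 24.6% ± 1.93 and 23.7% ± 0.652 of member reads, also with overlap. Members that share only their 3′ end with a circle of annotated exons held 31.9% ± 1.53, 34.2% ± 1.29 and 35.6% ± 0.751 of member reads, with an exact permutation p of 0.0214 that became 0.107 after adjustment over 10 such shares. The 15 members with the most reads held 14.1% ± 0.634, 15.9% ± 2.60 and 20.8% ± 0.507 (exact permutation p = 0.0143, adjusted 0.107). These 15 were chosen by their reads in the same 9 libraries, so members high only at later ages could enter through those ages. Their share is therefore a description.

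Single circRNAs were tested in 1 fit of all classes, in which 331 members from 263 hosts passed the filter on low counts, of 3877 circRNAs that passed in all. These 331 held 49.95% of member reads and had at least 41 reads each, and the other 13446 members were not tested. Of the 331, 45 had no read in any 6-month library, so they could pass only through a later age, and counts over the tested members are given as a description. Fold changes are log2 ± SE from edgeR with adjusted p over all 3877 circRNAs.

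At 4 years against 6 months, 81 members were higher and 15 lower, 24.5% and 4.53% of those tested. Of the 81, 33 had no read in any 6-month library and 48 had some. Over all circRNAs tested the same rule called 15.2% higher and 5.8% lower. The median log2 fold change was 1.18 over the tested members and 0.16 over all circRNAs tested. Scaled to the gene counts of the same libraries instead, 59 members were higher and 32 lower, and the median over all circRNAs was −0.53, so calls of lower members depend on the scaling. At 18 months against 6 months, 23 members were higher and 1 lower, where the rule called 4.72% of all circRNAs higher and 0.542% lower. No 6-month read was found for 13 of these 23. The medians there were 0.85 for members and 0.21 for all. Each of the 23 was also higher at 4 years against 6 months, in a comparison that uses the same 6-month libraries. At 4 years against 18 months edgeR called no member in either direction, and 0% of all circRNAs in each direction. At an unadjusted edgeR p under 0.05 that comparison had 11 members higher and 20 lower, and DESeq2 called 3 higher and 1 lower. No like share over all circRNAs is given for the unadjusted and DESeq2 counts, so they are a description.

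Scaled levels of the 3 animals did not overlap between 4 years and 6 months in 136 tested members that were higher and 53 that were lower. Over all circRNAs tested, 28.2% were higher and 21.3% lower without overlap. Between 18 months and 6 months 100 members were higher without overlap and 29 lower, where all circRNAs gave 18.7% and 13.4%. Between 4 years and 18 months the counts were 40 and 27, beside 10.4% and 8.72%.

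The 18-month calls depended on single animals. Without Y18M replicate 2, the 18-month library with the lowest germ cell sum, 67 members were higher than at 6 months and 4 lower. Without Y6M replicate 1 none was called, and without any other 1 of the 9 libraries 3 to 14 were higher. The 4-year count of 81 higher was 34 without Y6M replicate 1, 37 without Y6M replicate 3, 40, 43 and 47 without Y4Y replicates 1, 2 and 3, and 122 without Y18M replicate 2. The count of 15 lower was between 2 without Y4Y replicate 3 and 23 without Y18M replicate 2.

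RAD21L1 encodes a meiosis-specific kleisin, a subunit that closes the cohesin ring in mouse and human germ cells. Its leading member, of 678 bases (novel_circ_011419, chromosome 13, bases 59891703 to 59906500, minus strand, in the authors' coordinates, whose genome build is not settled here), had 8, 10 and 6 reads in Y6M, 286, 111 and 315 in Y18M, and 377, 444 and 222 in Y4Y. Every later animal was above every 6-month one. The log2 change was 5.73 ± 0.62 at 4 years against 6 months (adjusted p = 0.00556) and 4.75 ± 0.59 at 18 months against 6 months (adjusted p = 0.0149). The host gene itself rose by 4.31 ± 0.37 at 4 years, and the circle's difference from it, 1.39 ± 0.43, did not pass (adjusted p = 0.0688).

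Of 8 members from RAD21L1, 5 were tested and 4 were higher at 4 years. All 5 share 1 5′ end and join it to 5 different 3′ ends. The member of 1337 bases (novel_circ_011414) had 0 reads in each Y6M library, 42, 19 and 43 in Y18M and 83, 57 and 42 in Y4Y, at least 76.1-fold higher at 4 years and at least 29.5-fold at 18 months against a floor of 3 reads over the 3 younger libraries. That of 1511 bases (novel_circ_011411) likewise had none in Y6M, 34, 5 and 33 in Y18M and 66, 61 and 56 in Y4Y, at least 76.6-fold higher. With no read at 6 months, both could enter the test only through the later ages, so no change relative to the host is given for them. Together the 8 members held 41 reads in Y6M, 1099 in Y18M and 1724 in Y4Y, whereas the 5 circles of annotated exons from the gene held 6, 25 and 49.

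In 15 hosts at least 2 members were higher at 4 years, 33 members in all, and in 11 of these hosts all called members lay on a single end. These counts are a description, with no like share over all circRNAs beside them. FAM227B had 3 such members on a single 5′ end. The leading one, of 3433 bases (novel_circ_002280, chromosome 10, bases 60723815 to 60763633, plus strand as deposited), had 11, 16 and 15 reads in Y6M, 303, 60 and 192 in Y18M and 571, 649 and 459 in Y4Y. Its log2 change was 5.62 ± 0.72 at 4 years against 6 months (adjusted p = 0.00556), close to that of its host gene, 4.99 ± 0.58. Members of one host that share an end are not independent observations.

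Other abundant members were higher at 4 years too. TPP2 encodes a large cytosolic peptidase. Its member of 1153 bases (novel_circ_009417) had 26, 36 and 35 reads in Y6M, 199, 272 and 216 in Y18M and 222, 310 and 154 in Y4Y, with no overlap between 6 months and either later age. It rose by 3.101 ± 0.40 at 4 years (adjusted p = 0.00556), as its host did by 2.77 ± 0.18, and its difference from the host was 0.34 ± 0.34 (adjusted p = 0.562). CSPP1, a centrosome and cilium protein, had a member of 566 bases with 45, 59 and 28 reads in Y6M, 65, 130 and 193 in Y18M, and 130, 181 and 90 in Y4Y (4 years against 6 months 1.92 ± 0.49, adjusted p = 0.0236). NUP35 encodes a nuclear pore protein, and its member of 668 bases had 67, 64 and 34, then 140, 122 and 252, then 161, 240 and 75 reads at the 3 ages in order. It rose by 1.82 ± 0.51 (adjusted p = 0.0327). Its host gene did not pass, at 0.24 ± 0.18 (adjusted p = 0.251), and neither did the circle's difference from the host, 1.56 ± 0.47 (adjusted p = 0.0644).

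Some members were higher than at 6 months also relative to their host gene. FBXL17 encodes an F-box subunit that selects substrates for a ubiquitin ligase. Its member of 3136 bases (novel_circ_062895) had 6, 6 and 2 reads in Y6M, 180, 30 and 108 in Y18M and 155, 225 and 81 in Y4Y. The log2 change was 5.31 ± 0.86 at 4 years against 6 months (adjusted p = 0.0081), whereas the host gene changed by 0.29 ± 0.24 (adjusted p = 0.305). Relative to the host the change was 5.03 ± 0.69 at 4 years (adjusted p = 0.0115) and 4.26 at 18 months (adjusted p = 0.0297). The 3 circles of annotated exons from this gene held 330, 448 and 476 reads at the 3 ages. TMEM67 encodes meckelin, a membrane protein of the ciliary transition zone. Its member of 1461 bases had 2, 5 and 6 reads in Y6M, 89, 45 and 93 in Y18M, and 95, 94 and 65 in Y4Y, which is 3.84 ± 0.56 relative to the host at 4 years against 6 months (adjusted p = 0.0115).

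Across the 298 tested members whose host gene could be tested, 23 were higher and 10 lower relative to the host at 4 years against 6 months. Of the 23, 10 had no read at 6 months and could be tested only through a later age, and 13 had some. The balance turned with the scaling: library size alone gave 16 higher and 20 lower. It also turned with limma at a prior count of 2, which gave 32 and 44, whereas limma at 0.5 gave 33 and 18. The main rule called 4.05% of all circRNAs higher and 4.63% lower. At 18 months against 6 months it called 2 members higher and 1 lower, with 0.386% and 0.359% of all circRNAs. At 4 years against 18 months no member was called relative to the host, with 0% and 0.0276% of all circRNAs, and none by the limma alternative. At an unadjusted edgeR p under 0.05, 8 members were higher and 13 lower there, a description with no like share over all circRNAs. The relative counts at 4 years against 6 months rested on every animal of these 2 ages. Without any 1 animal of Y6M or Y4Y, 1 to 10 members were higher relative to the host and 0 to 3 lower.

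Of the 81 members higher at 4 years, the host gene was tested for 71. It was itself higher for 54, lower for 8 and not called for 9. No like share over all circRNAs tested is given, so counts of hosts here are a description. The 8 with a lower host came from ZNF148 (2 members), MARK3, STAG1, PCDHGC3, ZNF33B, RBM25 and FNDC7, all named after their values were seen. PCDHGC3 lies in a cluster of protocadherin genes that share exons, so its identity is uncertain. STAG1 encodes a cohesin subunit of dividing cells, and the symbol stands on 2 identifiers, of which the called member's host, ENSBTAG00000035437, was lower by −0.43 ± 0.15 (adjusted p = 0.0267), while ENSBTAG00000054797 did not pass, at 0.35 ± 0.33 (adjusted p = 0.352). This member of 16916 bases (novel_circ_026489) had 1, 8 and 1 reads in Y6M, 16, 43 and 48 in Y18M and 19, 27 and 21 in Y4Y. MARK3 is a microtubule affinity-regulating kinase whose member of 15080 bases had 5, 13 and 5 reads in Y6M, 17, 21 and 19 in Y18M and 32, 63 and 30 in Y4Y. Its log2 change was 2.73 ± 0.61 (adjusted p = 0.0156), while the host gene changed by −0.99. Of the 15 lower members, the host was tested for 14 and was lower for 12.

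**Figure D3:**
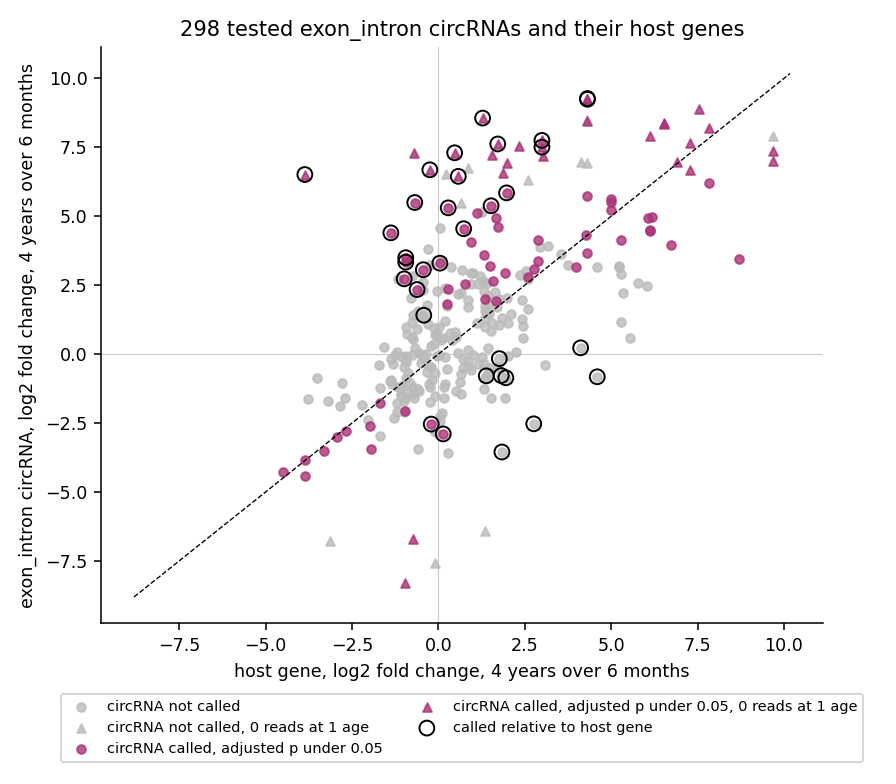
Log2 fold change of 298 tested exon_intron circRNAs (vertical axis) against that of their host genes (horizontal axis), 4 years over 6 months, each from edgeR; the dashed line marks equal change, rings mark circRNAs called relative to the host and triangles have 0 reads at 1 of the 2 ages, so their height depends on the fit. The 23 circRNAs called higher relative to the host lie above the line and the 10 called lower lie below it.

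The zinc finger gene ZNF148 shows how members of a single host differed. Its most abundant member is listed as an unspliced block of 22553 bases. It had 119, 207 and 111 reads in Y6M, 83, 275 and 171 in Y18M and 90, 119 and 78 in Y4Y. This member did not pass (−0.27 ± 0.44, adjusted p = 0.683). A member of 2496 bases with the same 3′ end (novel_circ_028733) had 3, 2 and 2 reads in Y6M, 28, 17 and 19 in Y18M, and 13, 23 and 22 in Y4Y. This one was higher at 4 years by 3.34 ± 0.68 (adjusted p = 0.0134), while the host gene was lower by −0.94 ± 0.19 (adjusted p = 0.00163).

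FMN1, which encodes a formin that nucleates actin filaments, gave the member with the most reads of all. This circle of 1992 bases (novel_circ_000954, chromosome 10, bases 29434641 to 29436632, plus strand as deposited) is listed as a single unspliced block. It shares neither end with a circle of annotated exons. It had 511, 398 and 385 reads in Y6M, 1356, 185 and 832 in Y18M and 1390, 1731 and 921 in Y4Y. Y18M replicate 2 was below every 6-month library, and the 4-year libraries did not overlap those of 6 months. Its log2 change was 1.95 ± 0.65 at 4 years (adjusted p = 0.0584) and did not pass. Circles of annotated exons from the same gene had 554, 342 and 300 reads in Y6M, 116, 171 and 151 in Y18M and 68, 157 and 68 in Y4Y. The member thus held 45.3%, 51.6% and 52.5% of the back-splice reads of FMN1 in Y6M, 88.7%, 51.0% and 81.5% in Y18M, and 92.9%, 88.7% and 89.6% in Y4Y.

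The share of the host's back-splice reads was computed in this way for the hosts of the 15 members with the highest mean level. CEP70 encodes a centrosomal protein, and its member of 521 bases held a smaller share at the later ages. Its reads were 246, 427 and 238 in Y6M, 136, 89 and 176 in Y18M, and 169, 140 and 107 in Y4Y, and its share of the host's back-splice reads was 66.0% to 82.6%, 42.6% to 56.3% and 40.7% to 44.5%. The exact permutation p over the 3 ages was 0.00714 for CEP70, 0.0214 for MRPL22, a mitochondrial ribosomal protein, 0.0286 for FMN1 and 0.0536 for TRIP12. After adjustment over the 15 hosts none passed (0.107, 0.143, 0.143 and 0.201). The leading circle's share overlapped between all ages in TPP2, at means of 96.7%, 96.7% and 96.1%. Its mean in RAD21L1 was 54.4% ± 11.1, 63.1% ± 5.65 and 58.5% ± 1.62. Against the linear host gene, the CEP70 circle was lower by −2.17 ± 0.35 at 4 years (adjusted p = 0.0131) and by −2.11 at 18 months (adjusted p = 0.0297), both against 6 months. The host gene had risen by 1.39 ± 0.33 at 4 years (adjusted p = 0.00415), and the circle's own change of −0.79 ± 0.45 did not pass (adjusted p = 0.231).

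**Figure D4:**
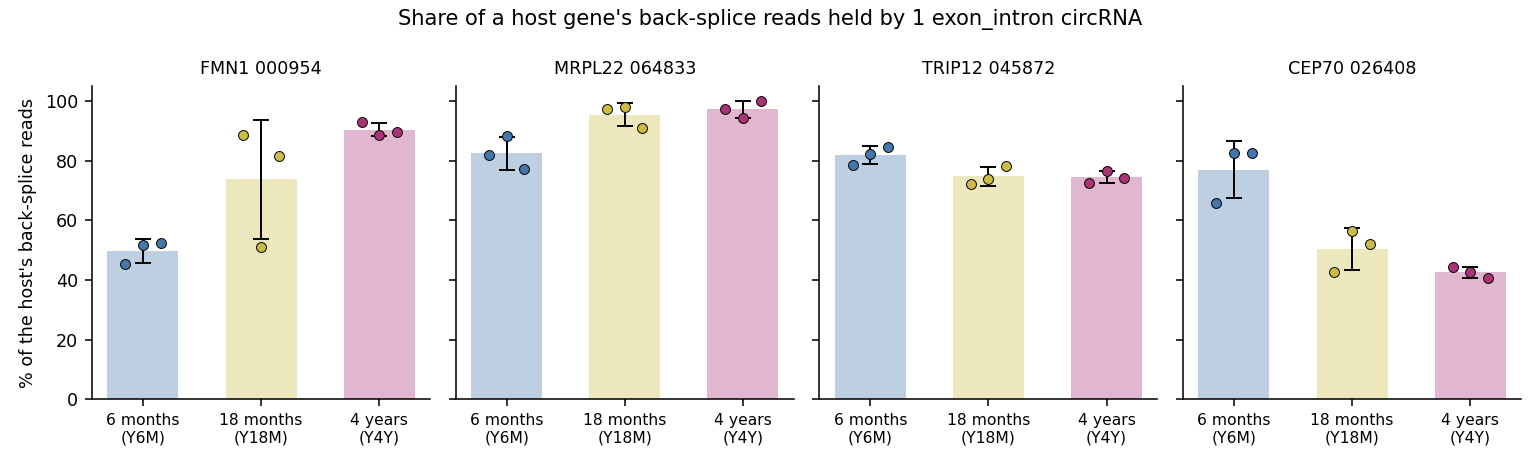
Percentage of a host gene's back-splice reads held by its leading exon_intron circRNA in each library, for FMN1, MRPL22, TRIP12 and CEP70, the 4 hosts with the smallest p among 15; points are animals, bars are means and error bars SD (n = 3 per age). At 4 years FMN1 lies between 88.7% and 92.9%, against 45.3% and 52.5% at 6 months, and CEP70 between 40.7% and 44.5%, against 66.0% and 82.6%.

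TRIP12 had the member with the second most reads, a circle of 950 bases that shares its 3′ end with a circle of annotated exons. It had 371, 302 and 350 reads in Y6M, 533, 557 and 645 in Y18M and 598, 619 and 399 in Y4Y. After TMM scaling (a library scaling that discounts the most changed features) each later age lay above the 6-month libraries, but the log2 change of 0.97 ± 0.32 at 4 years did not pass (adjusted p = 0.0583). Another TRIP12 member on the same 5′ end, of 1193 bases (novel_circ_045865), had 40, 30 and 17 reads in Y6M, 91, 91 and 75 in Y18M and 120, 102 and 57 in Y4Y and was higher by 2.01 ± 0.48 (adjusted p = 0.0206). The host gene was higher by 1.36 ± 0.20 (adjusted p = 0.000311).

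Among members of lower abundance, a circle from CUPIN1 and a circle from ABCA3, a lipid transporter gene, had no read at 6 months. Both could enter the test only through the later ages. That of CUPIN1 (1368 bases) had 20, 12 and 14 reads in Y18M and 19, 26 and 11 in Y4Y, at least 23.4-fold higher at 4 years against 6 months. That of ABCA3 (8781 bases, host ENSBTAG00000049585, a symbol that stands on 3 identifiers) had 8, 12 and 14 reads in Y18M and 19, 18 and 11 in Y4Y, at least 20.1-fold higher at 4 years. A host without a symbol gave a circle of 519 bases (novel_circ_056677) with 0, 5 and 6 reads in Y6M, 33, 27 and 33 in Y18M and 407, 66 and 179 in Y4Y. It was higher by 6.19 ± 1.09 at 4 years against 6 months (adjusted p = 0.00973).

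Members that fell had varied hosts. DMTF1 encodes a transcription factor of the cell cycle. Its member of 1995 bases (novel_circ_054172) had 155, 110 and 108 reads in Y6M, 35, 144 and 85 in Y18M, and 18, 14 and 8 in Y4Y, and it fell by 2.89 on the log2 scale at 4 years against 6 months (SE 0.55, adjusted p = 0.0128). Its host gene did not pass, at 0.14 ± 0.38 (adjusted p = 0.748), and relative to the host the circle was lower by −2.85 ± 0.59 (adjusted p = 0.0238). TLK1 (ENSBTAG00000006918, 1 of 2 identifiers with this symbol), a kinase of chromatin assembly, had a member of 3276 bases with 28, 43 and 28 reads in Y6M, 4, 12 and 10 in Y18M and 4, 4 and 5 in Y4Y. Relative to its host this circle was also lower at 4 years, by −2.33 ± 0.60 (adjusted p = 0.0406).

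Other members fell together with the host. POGLUT3, a glucosyltransferase of the endoplasmic reticulum, had a member with 32, 20 and 46 reads in Y6M, 6, 13 and 24 in Y18M and 2, 2 and 0 in Y4Y (−4.27 ± 0.92, adjusted p = 0.0146), and its host gene changed by −4.50 ± 0.35. DCLK3, IGDCC4 and FASTKD1 were lower at 4 years likewise, with host changes of −3.85, −3.32 and −0.96. SLC2A13, an inositol transporter, had a circle of 10629 bases that is listed as unspliced. Its reads were 30, 38 and 49 in Y6M, 0, 27 and 14 in Y18M and none in Y4Y. That is at least 31.1-fold lower at 4 years against 6 months. PRELID3A, of the PRELI family, gave a circle with 8, 19 and 12 reads in Y6M, 12, 5 and 3 in Y18M and none in Y4Y, at least 10.4-fold lower. With no read at 4 years, the SLC2A13 and PRELID3A circles could enter the test only through the younger ages. ABCB10, a mitochondrial transporter, gave the sole member lower at 18 months, with 35, 24 and 39 reads in Y6M, 2, 0 and 5 in Y18M and 3, 2 and 2 in Y4Y (18 months against 6 months −3.92 ± 0.92, adjusted p = 0.0437).

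DENND4A, an exchange factor for Rab proteins, had 163, 154 and 115 reads in Y6M, 60, 312 and 102 in Y18M and 38, 30 and 31 in Y4Y, with Y18M replicate 2 above all 6-month libraries in reads (4 years against 6 months −1.76 ± 0.54, adjusted p = 0.0426, host −1.69 ± 0.29). Other abundant members did not pass. HACD1, an enzyme of long-chain fatty acid synthesis, gave −0.86 ± 0.46 (adjusted p = 0.203) and the zinc finger gene ZNF550 (ENSBTAG00000009460, 1 of 2 identifiers with this symbol) gave 0.68 ± 0.71 (adjusted p = 0.527). C29H11orf54 had 0, 65 and 51 reads in Y6M, 144, 210 and 286 in Y18M and 451, 372 and 189 in Y4Y, and its change of 3.39 ± 1.12 just missed (adjusted p = 0.0548) beside a host value of 0.06 ± 0.27 (adjusted p = 0.842).

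**Figure D5:**
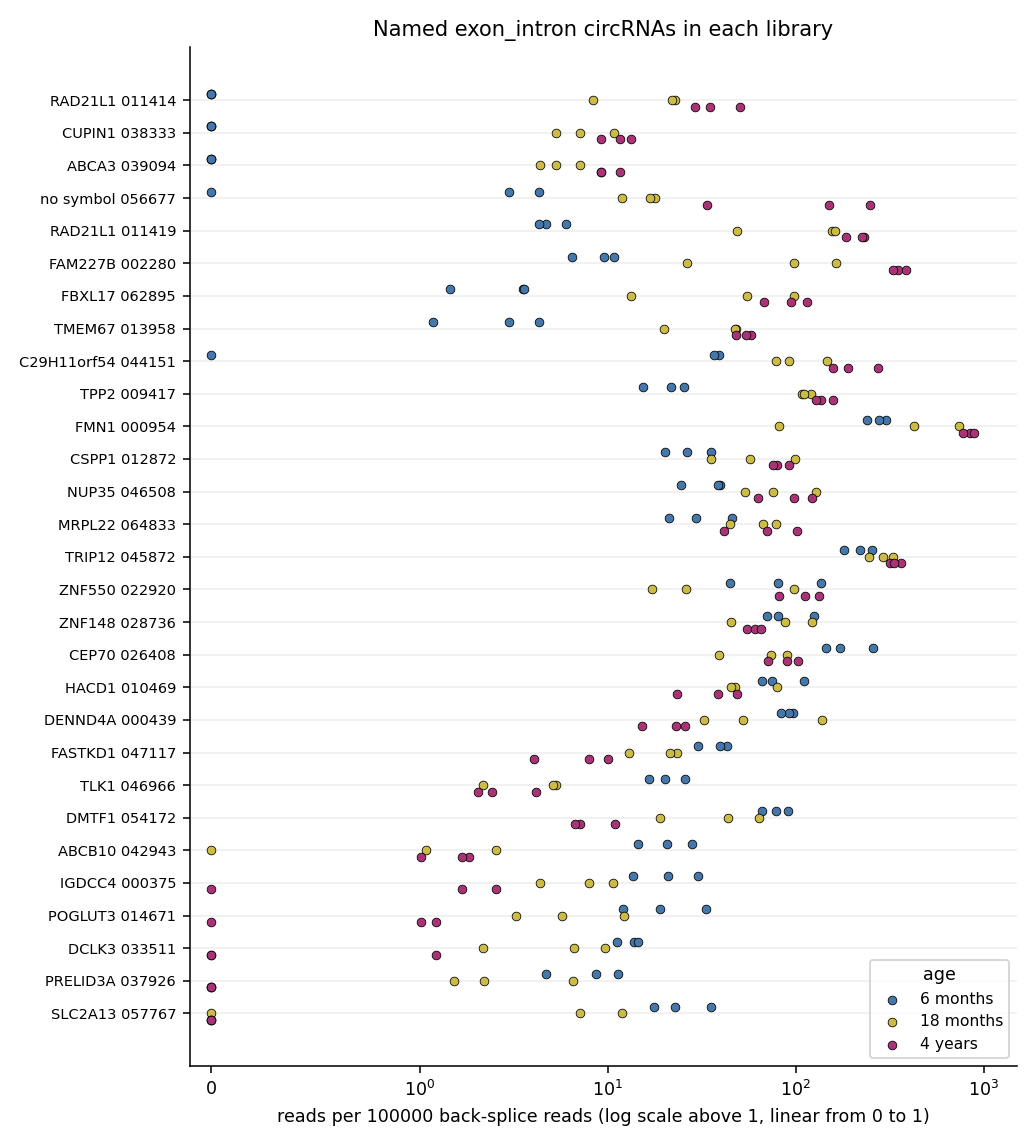
Reads per 100000 back-splice reads in the 9 libraries (horizontal axis, log scale above 1), for exon_intron circRNAs named by highest mean level or smallest p. Circles named only through a host or host list are not shown. Rows are ordered by the fitted log2 change at 4 years over 6 months, from top to bottom. Points are animals and the number after each symbol is the end of the deposited circRNA name. The RAD21L1, CUPIN1 and ABCA3 circles at the top are at 0 in all 6-month libraries, and the SLC2A13 and PRELID3A circles at the bottom are at 0 in all 4-year libraries.

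Host genes were also grouped by function. Of 42 genes of meiosis and recombination, 21 hosted 81 members, of which 8 were tested, 4 were higher at 4 years against 6 months and 3 at 18 months against 6 months, and none was lower. All these calls were RAD21L1 circles. Members with a meiosis host held 0.347% ± 0.165 of member reads in Y6M, 2.19% ± 0.786 in Y18M and 3.28% ± 0.154 in Y4Y. RAD21L1 circles made up most of this at the later ages, with 0.0973% ± 0.0485, 1.68% ± 0.736 and 2.70% ± 0.214 of member reads, against 0.250% ± 0.122, 0.515% ± 0.051 and 0.571% ± 0.081 for the 20 other meiosis hosts together. The 38 hosts among genes of the sperm flagellum and axoneme gave 177 members, and 1 of the 3 tested was higher at both later ages against 6 months. It came from IFT80, a subunit of intraflagellar transport, with 5, 6 and 6 reads in Y6M, 42, 24 and 37 in Y18M and 37, 43 and 27 in Y4Y (4 years 2.94 ± 0.60, adjusted p = 0.0134). Flagellum hosts held 0.538% ± 0.151, 0.969% ± 0.448 and 1.41% ± 0.194 of member reads at the 3 ages.

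The 21 hosts in the piRNA pathway and germ cell RNA binding gave 82 members, of which 3 were tested and none called. TDRD1, a Tudor protein that scaffolds piRNA factors, had a circle with 0, 8 and 4 reads in Y6M, 103, 12 and 51 in Y18M and 31, 7 and 43 in Y4Y (4 years against 6 months 3.17 ± 1.26, adjusted p = 0.0965). Its host gene was higher by 5.23 ± 0.42. TEX15, needed for meiosis and piRNA-directed silencing in mice, had a circle with 48, 0 and 22 reads in Y6M, 6, 5 and 18 in Y18M and 7, 9 and 3 in Y4Y (−1.58 ± 1.18, adjusted p = 0.363) and did not pass. Acrosome and spermatid hosts gave 95 members, and of the 2 tested, that of SPATA5 was higher at 4 years, with no read in Y6M, 13, 0 and 10 in Y18M and 21, 13 and 10 in Y4Y, at least 18.4-fold. With no read at 6 months, the SPATA5 circle could enter the test only through the later ages.

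The Sertoli cell and junction list had 32 members and the extracellular matrix list 45, none of which was tested, and of 26 members with a Leydig cell or steroid host 1 was tested and not called. Sertoli hosts held 0.142% ± 0.069 of member reads in Y6M, 0.128% ± 0.047 in Y18M and 0.0260% ± 0.028 in Y4Y, with 0 reads in Y4Y replicate 3. Genes of RNA splicing and circRNA biogenesis gave 62 members, and 4 were tested with none called. Hosts of widely described circRNAs gave 107, of which 3 were tested and none called. Among these 3 was an SLC8A1 circle of 1835 bases that is listed as unspliced. It had 32, 29 and 16 reads in Y6M, 11, 47 and 33 in Y18M and 0, 9 and 12 in Y4Y.

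The authors' deposited table for 4 years and 6 months lists 553 members, 392 higher and 161 lower at 4 years, and that for 18 months and 6 months lists 261, 194 higher and 67 lower at 18 months. For 4 years and 18 months the authors' deposited table lists 112 members. These tables were selected on unadjusted p-values under 0.05. All 81 higher and 15 lower members called here stand in the authors' deposited table with the same direction, and so do the 23 and 1 called at 18 months. Both sets of calls rest on the same 9 libraries and the authors' threshold is looser. The overlap is therefore no independent support.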

How the data were processed

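Testis libraries of 9 yaks (3 per age) were depleted of ribosomal RNA with Ribo-Zero Gold and sequenced on an Illumina HiSeq2500, per the labels' protocols. Build UMD3.1 and the tools StringTie 1.3.4, HISAT2 2.1.0 and fastp 0.18.0 stand in the submitters' processing notes, with no role given. How circRNAs were found, classed and counted, and whether their coordinates follow that build, is not given in the sources used here. Per the file headers the authors deposited a count of back-splice reads, a spliced length in bases and a class for each circRNA, and for genes values that are estimated counts (3137 of 22183 genes hold a fraction), rounded here. The tables of differing circRNAs that the authors deposited hold a log2 ratio and a p-value per circRNA, used only to look up members.

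Counts of all classes were fitted in edgeR 4.0.16 (R 4.3.3; filterByExpr, TMM, quasi-likelihood F-test, age as the only factor, 6 residual degrees of freedom), called at Benjamini-Hochberg adjusted p under 0.05. Change relative to the host gene was fitted with the host's level (prior count 2) as an edgeR offset. It replaced the planned limma 3.58.1 log ratio, which in counts simulated for 4 years against 6 months called 225 of 2961 unchanged circRNAs, against 3 for the offset. Those counts were drawn from the same host level that the offset fits, with a single dispersion. They therefore favour the offset and cannot show which test is right for these data. The main test was run on a separate simulation with the same single dispersion and no host changes by age. It recovered 56 of 88 circRNAs changed 4-fold and 87 of 91 changed 8-fold, with 8 of 3130 unchanged ones called. Recovery in the measured counts may differ. Library values were compared by exact permutation, two-sided. Depth was equalised to 119786 reads by hypergeometric expectation. A group with no reads was set to a floor of 3 reads over the group, which covers counting error only. Coordinates are 1-based.

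The members and host lists were chosen with earlier results of these data known. Named circRNAs are the 15 with the highest mean level, up to 8 per comparison and direction with the smallest p (called, 2-fold or more, ages not overlapping), the 8 hosts with the most members, and up to 3 per host list. Part of these is left out for length, and further circles of named hosts and those with an opposite host were picked after their values were seen. The labels give no batch. Samples with the same replicate number come from different animals and their deviations were not correlated (r −0.021 to 0.010). Alternatives were another scaling, DESeq2 1.42.0, other filters, only 2 ages, a replicate block and leaving out each library.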

Additional observations from a re-analysis of the deposited data

How the results depend on the processing

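The share of back-splice reads, the share summed over hosts and the number of distinct members kept their direction and their side of the 0.05 threshold (exact permutation tests) under every alternative run. The share differed between 4 years and 6 months by 4.37 to 4.72 percentage points without 1 library. The difference summed over hosts was smaller with the same weight per host, 2.09 percentage points against 5.76. The change in median length was reversed when circRNAs were weighted by reads, at −146.667 bases (exact permutation p = 0.571), and lay between 79.7 and 352.4 bases without 1 library, passing without Y6M replicate 3 (exact permutation p = 0.0214). For 18 months against 6 months, DESeq2 called 80 members higher and 8 lower, no low-count filter gave 35 and 4, a fit of the 2 ages alone gave 0 and 0, and library size alone and RLE factors each gave 2 lower. Without 1 library, 0 to 67 were higher and 0 to 4 lower. For 4 years against 6 months, DESeq2 called 124 higher and 29 lower, scaling to the gene table gave 32 lower, and leaving out 1 library gave 34 to 122 higher and 2 to 23 lower. For 4 years against 18 months, DESeq2 gave 3 and 1, and no filter 5 and 1. Relative to the host, limma called 14 higher and 8 lower at 18 months with a prior count of 0.5, and 16 and 27 with 2. At 4 years it called 33 and 18 with 0.5 and 32 and 44 with 2, and library size alone gave 3 higher and 2 lower at 18 months and 16 and 20 at 4 years. Without 1 library these relative counts were 0 to 5 higher and 0 to 1 lower at 18 months, and 1 to 29 and 0 to 18 at 4 years. With the replicate block, although the numbers do not pair animals, 0 members were higher and 0 lower at 18 months, 18 and 0 at 4 years, and 0 and 0 relative to the host in both. The cause of these shifts was not tested. Alternatives added after the data were seen were limma with a prior count of 2, the same weight per host and leaving out the members with most reads. The limma alternatives also called more unchanged circRNAs in simulated counts, which were drawn from the same host level that the offset fits. With 3 animals per age, 9155 members with reads in 1 library only could not be compared between ages at this depth.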

Other observations

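CircRNAs from the X chromosome were a smaller part of annot_exons circles at later ages. They held 3.20% ± 0.216 of annot_exons back-splice reads in Y6M, 2.24% ± 0.487 in Y18M and 1.43% ± 0.081 in Y4Y (SD, n = 3 per age), with no overlap between ages (exact permutation p = 0.00357, the smallest possible, 1 test chosen after the values were seen). Among exon_intron circRNAs the X chromosome held 2.83% ± 0.368, 1.89% ± 0.977 and 1.17% ± 0.186 of member reads, with an exact permutation p of 0.0679. The median spliced length of detected annot_exons circles was 593 ± 7.37, 619 ± 18.2 and 640.2 ± 5.53 bases at the 3 ages (exact permutation p = 0.0143). Genes of RNA splicing and circRNA biogenesis held 1.10% ± 0.155, 0.659% ± 0.237 and 0.487% ± 0.036 of member reads, a difference that was not tested.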
